A study of Mus musculus with 5 samples.

Results

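The tumour suppressor p53, encoded in mouse by Trp53, was followed together with 9 of its classical target genes in mouse lung fibroblasts given TGF-β1. The 10 genes were chosen by name, with earlier results of these data known: Trp53, Mdm2, Ccng1, Bax, Bbc3, Phlda3, Trp53inp1, Zmat3, Sesn1 and Gdf15. All 10 were matched to an Ensembl gene ID among the 55335 IDs counted, and all 10 passed the low-count filter that left 16380 genes for testing. The cells were primary cultures from mouse lung. A 24 h exposure to 5 ng/mL TGF-β1 gave 3 libraries, and vehicle gave the 2 called control. The series calls them independent biological replicates, and the labels give no strain, sex, age, passage or pooling of animals. No allele or transgene is named for either group. The spread behind each p-value is that between these 5 libraries and may be technical.

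p53 is a transcription factor that is kept scarce in unstressed cells, because MDM2, a ubiquitin ligase, marks it for breakdown. DNA damage, oncogene activity and other stresses block that breakdown, and p53 then binds response elements in DNA and switches on genes that stop the cell cycle, repair damage, adjust metabolism or start apoptosis. Mdm2 is itself a target, which closes a negative feedback loop. Much of this control acts on the p53 protein, so the Trp53 transcript is not a measure of p53 activity. In fibroblasts, the pathway is best known for its part in senescence and growth arrest.

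Libraries held 34283288 to 43163967 counts. Collagen-producing fibroblast markers were abundant in both groups, with a summed level over 11 genes of 45430 to 46940 CPM (counts scaled to library size) in controls and 53460 to 53920 CPM with TGF-β1, most of it Fn1, Col1a1 and Col1a2. By edgeR 5 of the 11 were higher and 6 were lower (median log2 fold change -0.49), Pdgfra by -2.02, Dcn by -1.90 and Tcf21 by -2.16 among the lower. The cultures also held transcripts of other cell types. Of 13 mesothelial markers, 12 were lower with TGF-β1 by edgeR, and their summed level went from 1636 to 1734 CPM in controls to 292 to 315 CPM. Of 13 macrophage and leukocyte markers 11 were tested, of which 9 were lower and 1 was higher, and their sum went from 2741 to 2822 CPM to 1752 to 1775 CPM, most of it Lyz2. Cd3e, a subunit of the T cell receptor complex, was at 0 in all libraries, and the 9 epithelial and 9 endothelial markers summed to at most 5.69 and 5.26 CPM in a library. Of 15 known TGF-β response genes, 13 were higher and 2 were lower, Acta2 (log2 fold change -0.12) and Tgfbr3 (-2.28). Of 7 tested mural cell markers 1 was higher and 4 were lower. The counts in each of these lists are to be read against all tested genes, of which 21.3% were higher and 23.2% lower. The part of these other cells in the results below was not tested. In bulk RNA, fewer cells of a type and less RNA per cell cannot be told apart.

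The response element that p53 binds has 2 copies of a 10-base half-site. Only spacings of 0 or 1 base between the copies were searched, so the matches and shares below hold for those spacings alone. Its consensus was looked for in RefSeq promoters of GRCm38.p6, each covering 250 bases before to 50 after an annotated start. The half-site reads the same on both strands. Entries were found for 8 of the 10 genes, all but Trp53inp1 and Zmat3. The stretches below are shown because they hold the closest matches among the 10 genes, with Cdkn1a, the best known p53 target, beside them for scale. They are written 5′ to 3′ on the strand of the gene, and capitals mark the match.
Ccng1, chr11:40755422-40755521, minus strand: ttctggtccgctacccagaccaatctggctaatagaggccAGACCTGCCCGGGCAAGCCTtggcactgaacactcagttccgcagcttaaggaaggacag
Bax, chr7:45467050-45467148, minus strand: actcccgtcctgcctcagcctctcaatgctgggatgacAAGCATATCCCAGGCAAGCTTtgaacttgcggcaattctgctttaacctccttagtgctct
Cdkn1a, chr17:29090923-29090952, plus strand: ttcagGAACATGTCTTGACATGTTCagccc
Trp53, chr11:69580279-69580308, plus strand: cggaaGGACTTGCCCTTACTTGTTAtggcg
Bbc3, chr7:16309446-16309545, plus strand: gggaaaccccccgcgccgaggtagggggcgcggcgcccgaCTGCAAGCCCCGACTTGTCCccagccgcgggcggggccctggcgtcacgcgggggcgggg
Sesn1, chr10:41887226-41887325, plus strand: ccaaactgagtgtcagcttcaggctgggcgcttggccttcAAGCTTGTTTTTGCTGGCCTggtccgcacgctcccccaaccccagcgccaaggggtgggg

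Ccng1, Bax and Cdkn1a each held a match with 1 mismatch to the consensus, and only 0.177% of the 32851 promoters in the table held a match that close. The Ccng1 match ends 175 bases before the start, and the Bax match, with 1 base between its half-sites, ends 191 bases before it. The best matches of Trp53, Bbc3 and Sesn1 have 3 mismatches, which 11.7% of promoters reach. The best match for Gdf15 has 4 mismatches and those for Mdm2 and Phlda3 have 5, which 47.4% and 89.9% of promoters reach. Each share counts single promoters, whereas the best match was taken over 3 promoters for Bbc3 and 2 each for Sesn1, Gdf15 and Cdkn1a. A match is a description of the letters in this window. The p53 elements best known for Mdm2 lie in its first intron, outside the window.

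Of the 10 genes, 3 were higher with TGF-β1 (Trp53, Mdm2 and Phlda3), 3 were lower (Trp53inp1, Sesn1 and Gdf15), and 4 did not pass (Ccng1, Bax, Bbc3 and Zmat3). The threshold was an adjusted p under 0.05 by edgeR's quasi-likelihood test, adjusted over all genes. TGF-β1 changed much of the transcriptome, and 44.5% of all tested genes passed, 21.3% higher and 23.2% lower. The 6 of 10 that passed are to be read against that share. Only Sesn1 and Gdf15 passed with a change of at least 1.5-fold, as 18.9% of tested genes did. The median log2 fold change (written log2 change from here, TGF-β1 over control) was 0.04 over the 10 genes and 0.00 over all tested genes. CPM in the 3 TGF-β1 libraries lay entirely above or below both controls for 8 of the 10, against 64.6% of all tested genes. Of the 8, 4 lay above, as 31.6% of tested genes did, and 4 lay below, as 33.0% did. Leaving out control 1 or TGF-β1 replicate 1 left 1 gene called lower, Sesn1, in place of 3.

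These small increases depend on the scaling between libraries. Scaling by library totals, in place of the TMM factors used here, moved the median of all genes by -0.10 on the log2 scale. The higher share of all calls went from 47.9% to 32.1%. With library totals Mdm2 alone was still called higher among the 10, and the values of Ccng1, Bax and Zmat3 turned negative. Bbc3, which had not passed, was then called lower (log2 change -0.33, edgeR adjusted p = 0.0161).

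**Figure D1:**
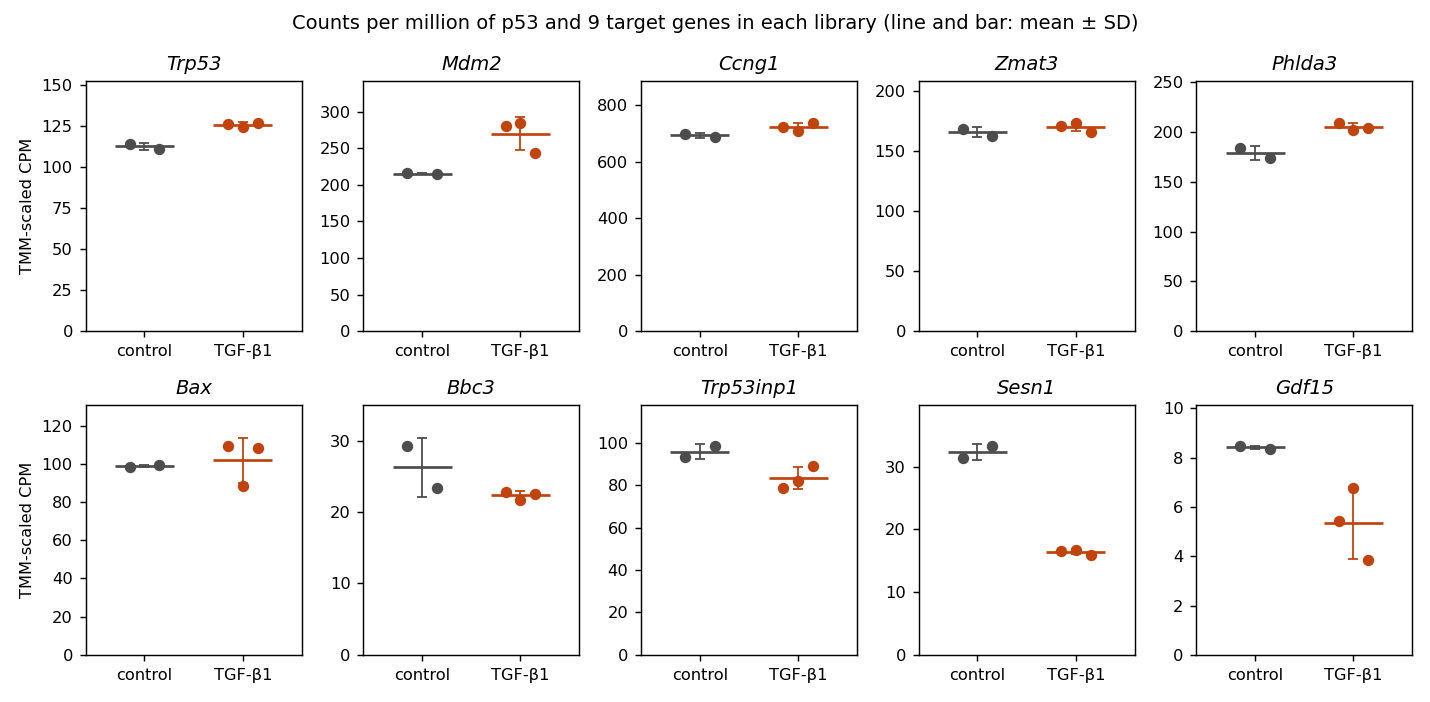
TMM-scaled CPM (vertical axis, from 0) of p53 and 9 targets in each control (grey, 2 libraries) and TGF-β1 (orange, 3 libraries) sample, with mean ± SD. Sesn1 shows the widest gap as a ratio, from 31.4 and 33.2 CPM in controls to between 16.0 and 16.8 CPM, while the groups overlap for Bax and Zmat3.

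Trp53 itself (ENSMUSG00000059552, GRCm38 chromosome 11, 69580359 to 69591873, plus strand) was at 114 and 111 CPM in the controls and at 126, 125 and 127 CPM with TGF-β1. All 3 treated libraries were above both controls, and the spread within each group was small. The transcript rose by 11.8%, from 113 ± 2.32 CPM (SD, n = 2) to 126 ± 1.303 CPM (SD, n = 3), with a log2 change of 0.16 (SE 0.037, edgeR adjusted p = 0.00637). The call was lost with library totals (log2 change 0.06, adjusted p = 0.209) and without control 2 (0.14, adjusted p = 0.063). Wrap53, which starts next to Trp53 on the opposite strand and encodes a protein of telomerase assembly, went from 8.29 ± 0.392 to 8.08 ± 0.531 CPM and did not pass (adjusted p = 0.825). No exon of Trp53 overlapped another counted gene.

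Mdm2, the ubiquitin ligase that limits p53 (ENSMUSG00000020184, chromosome 10, 117688875 to 117710758, minus strand), had the largest increase of the 10. It was at 216 and 215 CPM in the controls and at 280.5, 285 and 244 CPM with TGF-β1. Replicate 3 was the lowest of the treated libraries and still lay above both controls. The mean went from 216 ± 1.04 to 269.9 ± 22.3 CPM, a rise of 25.2% (log2 change 0.32, SE 0.060, edgeR adjusted p = 0.00183). The increase passed in every alternative tried except the test against a 1.5-fold change. Over those alternatives the log2 change was 0.23 to 0.39. Mdm4, the relative of MDM2 that holds p53 inactive without being an effective ubiquitin ligase alone, went the other way. It fell from 88.9 ± 1.29 to 77.9 ± 5.43 CPM (log2 change -0.19, edgeR adjusted p = 0.0269), and the call was lost without either control (adjusted p = 0.104 and 0.152) and when every gene with a count was tested (adjusted p = 0.0542).

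Among targets tied to growth arrest and growth signalling, Phlda3 rose and Ccng1 and Zmat3 did not pass. Phlda3 encodes a pleckstrin-homology protein that restrains AKT signalling (ENSMUSG00000041801, chromosome 1, 135766119 to 135769136, plus strand). It was at 184 and 174 CPM in controls and at 209, 202 and 204 CPM with TGF-β1, without overlap. The log2 change was 0.20 (SE 0.037, edgeR adjusted p = 0.002), from 179 ± 6.76 to 205 ± 3.83 CPM, and with library totals it was 0.10 and just missed the threshold (adjusted p = 0.0519).

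Ccng1, encoding cyclin G1, which takes part in feedback on p53 through MDM2 (ENSMUSG00000020326, chromosome 11, 40748552 to 40755311, minus strand), was at 701 and 688 CPM in controls and at 722, 711 and 739 CPM with TGF-β1. The treated libraries all lay above the controls by a narrow margin. The log2 change was 0.06 (95% interval 0.00 to 0.12, edgeR adjusted p = 0.0814), and it was -0.04 with library totals. Zmat3, a zinc-finger RNA-binding protein (ENSMUSG00000027663, chromosome 3, 32334792 to 32366014, minus strand), was at 169 and 163 CPM in controls and at 171, 174 and 166 CPM with TGF-β1. The groups overlapped, and the log2 change was 0.04 (95% interval -0.04 to 0.12, edgeR adjusted p = 0.423), or -0.06 with library totals.

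Bax and Bbc3, which act at the mitochondrion in apoptosis, did not pass. Bax, the pore-forming member of the BCL2 family (ENSMUSG00000003873, chromosome 7, 45461697 to 45466898, minus strand), was at 98.3 and 99.2 CPM in controls and at 109, 88.2 and 108 CPM with TGF-β1. Replicate 2 lay below both controls and the other treated libraries lay above them. The log2 change was 0.04 (95% interval -0.14 to 0.23, edgeR adjusted p = 0.703). Without TGF-β1 replicate 2 it was 0.14 and passed (adjusted p = 0.0358), and without replicate 1 or 3 it was -0.003 and -0.002.

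Bbc3, encoding the BH3-only protein PUMA (ENSMUSG00000002083, chromosome 7, 16308393 to 16318205, plus strand), was at 29.2 and 23.4 CPM in controls and at 22.75, 21.7 and 22.6 CPM with TGF-β1. The controls differed from each other by more than control 2 differed from any treated library. The log2 change was -0.23 (95% interval -0.45 to -0.02) and missed the threshold (edgeR adjusted p = 0.0728). With library totals it was -0.33 and passed (edgeR adjusted p = 0.0161). Without control 2 it was -0.39 and passed (adjusted p = 0.0114), and without control 1 it was -0.06.

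Trp53inp1 encodes a nuclear and autophagy protein that promotes p53-dependent death and arrest (ENSMUSG00000028211, chromosome 4, 11156431 to 11174379, plus strand). Its level was 93.4 and 98.3 CPM in controls and 78.8, 82.0 and 89.2 CPM with TGF-β1. All treated libraries were below both controls, with replicate 3 nearest to them. The log2 change was -0.20 (SE 0.058, edgeR adjusted p = 0.0181). The call did not survive leaving out control 1, control 2, TGF-β1 replicate 1 or TGF-β1 replicate 2 (adjusted p = 0.0524, 0.152, 0.0658 and 0.0647).

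**Figure D2:**
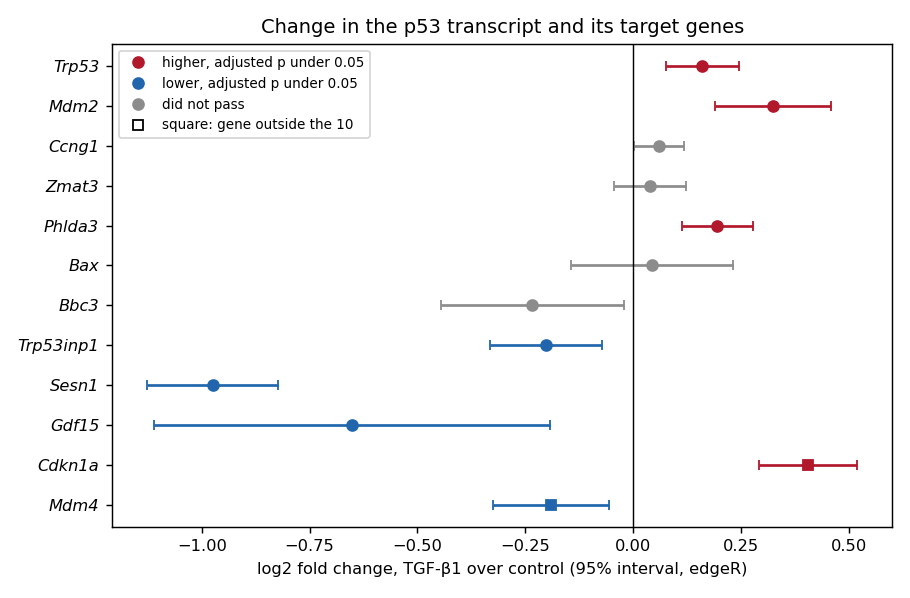
Log2 fold change, TGF-β1 over control (horizontal axis), with its 95% interval for the 10 genes (circles) and for Cdkn1a and Mdm4 (squares), coloured by the edgeR call. Sesn1 (-0.97) lies farthest from 0 and Mdm2 (0.32) is the highest of the 10.

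Sesn1 and Gdf15 had the largest falls of the 10. Sesn1 encodes sestrin 1, which restrains the growth kinase mTORC1 and limits oxidative damage (ENSMUSG00000038332, chromosome 10, 41809935 to 41908424, plus strand). Its level was 31.4 and 33.2 CPM in controls and 16.6, 16.8 and 16.0 CPM with TGF-β1. The groups were far apart compared with the spread inside either. Sesn1 fell from 32.3 ± 1.26 to 16.5 ± 0.418 CPM, with a log2 change of -0.97 (SE 0.067, edgeR adjusted p = 3.08e-06), or 1.97-fold lower. By size of change it stood at the 86.1st percentile of all tested genes. It passed under all 14 alternatives, the test against a 1.5-fold change included, with log2 changes of -1.07 to -0.93.

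Gdf15 encodes a secreted stress cytokine of the TGF-β superfamily that is induced by p53 and also by the integrated stress response (ENSMUSG00000038508, chromosome 8, 70629393 to 70632456, minus strand). It was the scarcest of the 10, with 149 to 352 counts in a library. The level was 8.455 and 8.37 CPM in controls and 5.42, 6.76 and 3.85 CPM with TGF-β1. The treated libraries were all lower and spread widely, and the controls were nearly equal. The log2 change was -0.65 (SE 0.203, edgeR adjusted p = 0.0269). The direction was negative in every alternative, but the call was lost without control 1, control 2 or TGF-β1 replicate 1 (adjusted p = 0.126, 0.114 and 0.0511) and when every gene with a count was tested (adjusted p = 0.0668).

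Per kilobase of merged exons, the scale on which genes can be compared, Ccng1 was the most abundant of the 10 in controls at 198 ± 2.59 CPM per kb. Phlda3 followed at 115 ± 4.33, Bax at 62.7 ± 0.403, Mdm2 at 42.4 ± 0.205 and Trp53 at 27.9 ± 0.574 CPM per kb. Trp53inp1 (14.8 ± 0.531), Zmat3 (14.5 ± 0.376) and Bbc3 (12.4 ± 1.93 CPM per kb) came next. Their ranges of mean ± SD overlapped, and differences between genes were not tested. Sesn1 at 8.12 ± 0.318 and Gdf15 at 4.54 ± 0.0323 CPM per kb were lowest. With TGF-β1 the order was the same except that Zmat3 (14.9 ± 0.337) stood above Trp53inp1 (12.9 ± 0.824 CPM per kb). Sesn1 fell to 4.13 ± 0.105 CPM per kb, and Gdf15 was at 2.89 ± 0.786 CPM per kb. The merged exons count every annotated isoform, so a gene with long rarely used exons appears lower than it is.

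**Figure D3:**
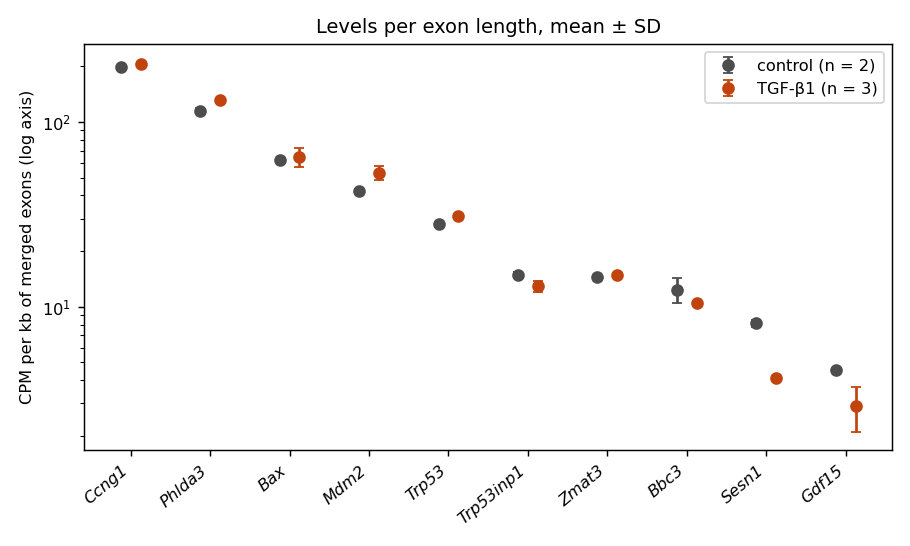
CPM per kb of merged exons (log axis) of the 10 genes, ordered by their control level, as mean ± SD of 2 control (grey) and 3 TGF-β1 (orange) libraries. Levels run from 198 CPM per kb for Ccng1 to 4.54 for Gdf15 in controls.

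The wider network was read from lists of further genes, set out by role and written with earlier results of these data known. The list of 27 regulators of p53 protein also held the relatives Trp63 and Trp73 and the neighbouring gene Wrap53. Of the 27, 25 were tested, of which 7 rose, 7 fell and 11 missed the threshold, with a median log2 change of -0.01. The share that passed was 56.0%, near the 44.5% of all tested genes (21.3% higher and 23.2% lower, the shares against which the counts of each list below are to be read). Ppp1r13l, encoding the p53-binding inhibitor iASPP, rose from 44.0 ± 2.66 to 72.5 ± 1.92 CPM (log2 change 0.72, edgeR adjusted p = 5.91e-06). Cdkn2a, which encodes p16 and the MDM2 antagonist ARF, rose from 26.7 ± 1.32 to 41.1 ± 2.19 CPM (log2 change 0.62), and the counts do not separate its transcripts. Dyrk2, a kinase that phosphorylates p53, rose from 58.3 ± 1.33 to 87.6 ± 7.06 CPM (log2 change 0.59). Ppm1d, the phosphatase WIP1 that reverses p53 activation, went from 15.7 ± 2.09 to 14.6 ± 0.338 CPM and did not pass (adjusted p = 0.449). The relatives Trp63 and Trp73 did not pass the filter, and Trp63 had 0 counts in all 5 libraries.

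Of 10 tested targets that act in cell cycle arrest, 5 rose, 4 fell and 1 missed the threshold, with a median of 0.26, where 44.5% of all tested genes passed. Cdkn1a, encoding the CDK inhibitor p21, was at 379.8 and 368 CPM in controls and at 519, 510.2 and 458 CPM with TGF-β1. It rose from 374 ± 8.08 to 496 ± 33.3 CPM (log2 change 0.41, SE 0.050, edgeR adjusted p = 0.000153). Sfn, encoding the 14-3-3 sigma protein, rose from 4.12 ± 0.263 to 14.1 ± 1.36 CPM (log2 change 1.78), and Gadd45a, a growth-arrest and DNA-damage gene, from 36.3 ± 1.48 to 95.5 ± 8.05 CPM (log2 change 1.40). Ptprv, a receptor phosphatase gene, fell from 7.79 ± 1.17 to 3.24 ± 0.540 CPM (log2 change -1.26).

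Of 15 death-signalling targets 14 were tested, of which 4 rose, 6 fell and 4 missed the threshold, with a median of -0.20. Over all tested genes 21.3% were higher and 23.2% lower. Pmaip1, encoding the BH3-only protein NOXA, rose from 30.01 ± 0.0973 to 48.2 ± 1.87 CPM (log2 change 0.68, edgeR adjusted p = 9.61e-06). Fas, the death receptor, fell from 14.8 ± 0.155 to 8.76 ± 0.783 CPM (log2 change -0.76, edgeR adjusted p = 0.000325). Dram1, a lysosomal autophagy gene, fell from 18.3 ± 0.144 to 12.7 ± 0.808 CPM (log2 change -0.52). Bid fell from 17.4 ± 0.394 to 8.81 ± 0.695 CPM (log2 change -0.98), which is uncertain, because Bcl2l13 shares its exons on the opposite strand. Trp53i11 fell from 9.21 ± 0.118 to 6.83 ± 0.521 CPM (log2 change -0.43).

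Of 10 DNA repair targets tested by edgeR, 3 fell and 7 missed the threshold, with a median of -0.13. That count is near the 23.2% of all tested genes that were lower. Mgmt, which removes alkyl groups from guanine, fell from 22.6 ± 0.371 to 17.4 ± 0.149 CPM (log2 change -0.37), and Pcna, the replication clamp, from 63.6 ± 0.486 to 53.8 ± 3.53 CPM (log2 change -0.24). Ddb2, the third, shares exons with the more abundant Acp2 and its value is uncertain.

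Of 16 metabolic targets, 3 rose, 8 fell and 5 missed the threshold, with a median of -0.13, beside 21.3% higher and 23.2% lower over all tested genes. Among those that rose, Gls2 and Sco2 are uncertain, because they share exons with the more abundant Spryd4 and Ncaph2. Among those that fell, Tsc2 is uncertain, because it shares exons with the more abundant Pkd1. Fdxr, ferredoxin reductase of mitochondria, fell from 25.01 ± 0.973 to 9.88 ± 0.411 CPM (log2 change -1.34, edgeR adjusted p = 1.3e-06). Ephx1, microsomal epoxide hydrolase, fell from 209 ± 0.665 to 84.3 ± 3.31 CPM (log2 change -1.31), and Lpin1, a phosphatidate phosphatase, from 27.1 ± 0.602 to 15.9 ± 0.851 CPM (log2 change -0.77). Sesn2, the sestrin most tied to ATF4, went from 72.6 ± 0.536 to 87.8 ± 13.9 CPM and did not pass (adjusted p = 0.0705).

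Secreted and surface targets changed in both directions. Of 16, 6 rose, 8 fell and 2 missed the threshold, with a median of -0.25, where 44.5% of all tested genes passed. Lif, a cytokine of the interleukin-6 family, rose from 26.2 ± 1.603 to 79.2 ± 19.03 CPM (log2 change 1.596), and the chemokine gene Cx3cl1 from 34.8 ± 1.40 to 89.1 ± 3.33 CPM (log2 change 1.36). Ackr3, a scavenging chemokine receptor, fell from 8.16 ± 0.0242 to 2.99 ± 0.354 CPM (log2 change -1.45). Over the target lists together 66 of 67 genes were tested, of which 18 rose, 29 fell and 19 missed the threshold, with a median of -0.14 against 0.00 for all tested genes. The share of these targets that passed was 71.2%, against the 44.5% of all tested genes. Whether p53 protein takes part in any of these changes was not tested.

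**Figure D4:**
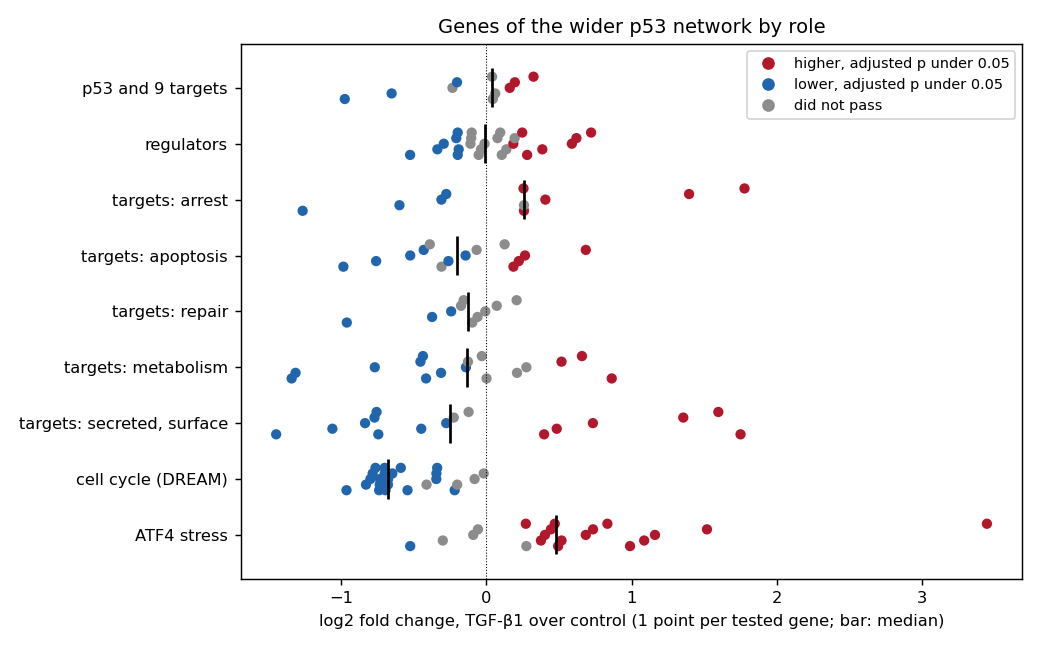
Log2 fold change, TGF-β1 over control (horizontal axis), of every tested gene in 9 lists, 1 point per gene coloured by the edgeR call, with a bar at each list's median. Target lists spread to both sides of 0, the cell cycle list lies below 0 (median -0.68) and the ATF4 list mostly above it (median 0.48).

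Cell cycle genes, which p53 can lower indirectly through p21 and the DREAM repressor complex on their promoters, were mostly lower with TGF-β1. Of 24 tested by edgeR, 20 fell and 4 missed the threshold, with a median log2 change of -0.68, against 23.2% lower among all tested genes. Cenpf, a kinetochore gene, fell from 20.7 ± 1.61 to 10.6 ± 1.51 CPM (log2 change -0.96), Ccnb2, a mitotic cyclin, from 22.9 ± 1.02 to 12.9 ± 0.432 CPM (log2 change -0.83), and Aurkb, a mitotic kinase, from 19.9 ± 0.341 to 11.4 ± 0.818 CPM (log2 change -0.80). The part of p53, p21 or DREAM in these falls was not tested.

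The integrated stress response shares targets with p53 and was read beside it. Of 20 genes of the ATF4 list, 15 rose, 1 fell and 4 missed the threshold, with a median of 0.48, against 21.3% higher among all tested genes. Atf4, its transcription factor, was at 228 and 217 CPM in controls and at 329, 334.5 and 262 CPM with TGF-β1 (log2 change 0.47, edgeR adjusted p = 0.00239). Trib3, a pseudokinase induced by ATF4, rose from 31.9 ± 0.0549 to 67.7 ± 15.01 CPM (log2 change 1.09), and Cth, an enzyme of cysteine synthesis, from 11.5 ± 0.711 to 32.9 ± 1.39 CPM (log2 change 1.52). Ddit3, encoding CHOP, rose from 28.8 ± 0.650 to 39.1 ± 8.05 CPM (log2 change 0.44, edgeR adjusted p = 0.0344). Its value is uncertain, because it shares exons with the more abundant Mars on the opposite strand. Gdf15, a member of both networks, was lower. Within the TGF-β1 group, replicate 3 had the lowest level of Mdm2, Cdkn1a, Atf4, Ddit3, Trib3, Sesn2, Lif and Gdf15, a set named after their values were seen. Among the 10 genes it was also lowest for Zmat3 and Sesn1, and highest for Trp53, Ccng1 and Trp53inp1 (127, 739 and 89.2 CPM). In the ATF4 list it was highest for others, among them Slc7a11, Slc3a2 and Ppp1r15a (19.65, 218 and 55.0 CPM). How often it was lowest over all tested genes was not counted.

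Interferon genes also set the controls apart, and p53 is known to be an interferon-responsive gene. Of 25 interferon genes, 24 fell and 1 missed the threshold by edgeR, against 23.2% lower among all tested genes, and control 2 was above control 1 by a median log2 ratio of 0.84. For the 10 genes that median was -0.02, and Trp53 was at 114 CPM in control 1 and 111 CPM in control 2. These values compare the controls alone, and the part of interferon in the changes with TGF-β1 was not tested.

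**Figure D5:**
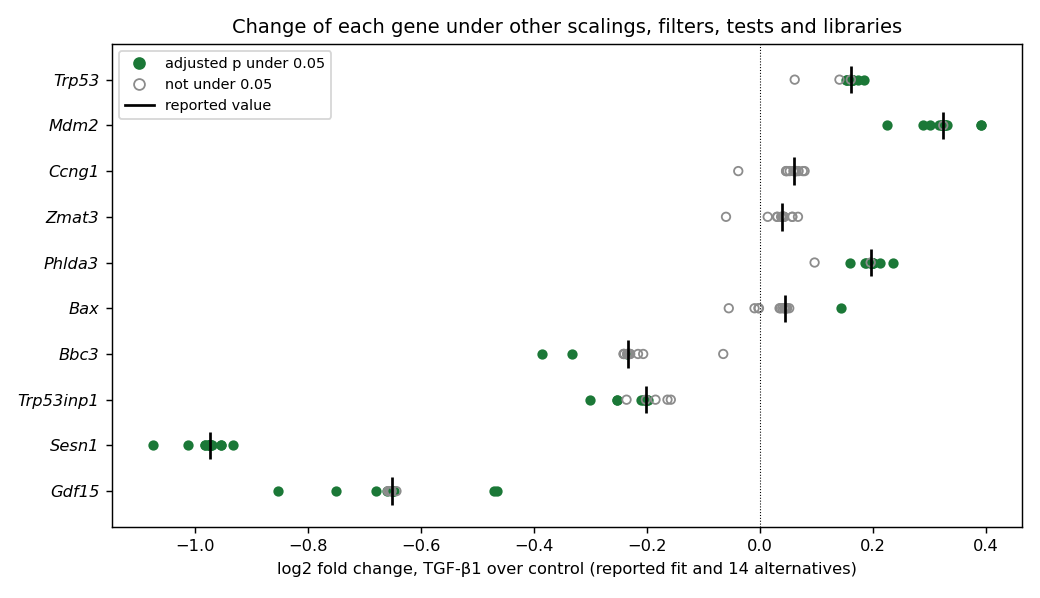
Log2 fold change of each of the 10 genes (horizontal axis) in the reported fit (black bar) and in 14 alternatives (filled where the adjusted p is under 0.05). Sesn1 stays between -1.07 and -0.93 and is filled throughout, whereas Ccng1, Zmat3 and Bax have points on both sides of 0.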

How the data were processed

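PolyA RNA was sequenced with strand-specific libraries, per the labels' protocols. The authors deposited whole-number counts per Ensembl gene for the 5 libraries, with no scaling. The submitters' processing notes name STAR 2.5.3a, StringTie 1.3.1c and mm10, without roles. The counting tool, its strand setting and the annotation are not stated in these sources. Genes named in the Results that share exons with a gene at over 0.1 of their own counts are therefore called uncertain. Further such genes are counted in the lists, among them Pltp and Tap1 (targets), Kat5 and Trp53bp1 (regulators), Cdc20 and Ccna2 (cell cycle) and Bad (relatives). IDs were matched to GENCODE M21 (GRCm38): 55154 had symbols. Ddit3 is on 2 IDs, and the longer was used.

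Genes were filtered with filterByExpr, scaled with TMM (factors 0.972 to 1.05) and tested two-sided with edgeR 4.0.16 (R 4.3.3), group alone, Benjamini-Hochberg adjusted over 16380 genes. SE is the absolute log2 fold change over the square root of F, and 95% intervals use the test's degrees of freedom. With 2 and 3 libraries, the smallest exact permutation p is 0.1. In simulated counts for this design (16040 genes), edgeR recovered 13 of 50 genes changed 1.25-fold, 29 of 50 at 1.5-fold, 35 of 50 at 2-fold and 47 of 50 at 4-fold, with 11 false calls. No other genes were changed there, against 44.5% called in the data, so these shares do not carry over to this fit. The members and lists were chosen with earlier results of these data known. Named genes were the 10, 12 fixed genes (1 is not reported here) and, per list, up to 3 further called genes averaging 5 CPM or more, by size of change. Ddb2, Gls2, Sco2, Tsc2, Trp63, Trp73, Slc3a2, Ppp1r15a, Acta2 and Tgfbr3 are named outside that rule, after their values were seen. So are the uncertain genes listed above and the cell type markers. Alternatives were other scalings and filters, DESeq2 1.42.0, limma-voom 3.58.1, a 1.5-fold null, a replicate block and leaving out each library.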

Additional observations from a re-analysis of the deposited data

How the results depend on the processing

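Over 14 alternatives, 114 of 140 values for the 10 genes kept their direction and their side of the threshold, 16 kept the direction and lost the call, 4 gained one and 6 changed sign. The sign changes were in genes that had not passed: with library totals the log2 fold change was -0.0383 for Ccng1, -0.0551 for Bax and -0.0600 for Zmat3, and leaving out single libraries gave Bax values of -0.0026 to 0.1439. Leaving out single libraries gave -0.2277 to 0.0450 for Ppm1d, positive without control 2, and -0.0877 to 0.0129 for Wrap53, positive without control 1. With library totals, 2325 of all genes and 1 of the 10 were called higher, and 2 ATF4 genes were called lower. Against a 1.5-fold change, 563 genes were higher and 1223 lower. By that test none of the 10 was higher (0) and 1, Sesn1, was lower. Of the regulators 1 was higher and 0 lower, of the target lists 6 and 8, of the cell cycle list 6 lower, and of the ATF4 list 7 higher and 0 lower. Leaving out 1 library gave 2 to 4 of the 10 higher and 1 to 3 lower, and 1 to 6 regulators lower, with 1 of them without control 1 and 4 without control 2.

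The groups share replicate numbers 1 and 2, but same-numbered libraries did not deviate together (correlations of 0.0159 and 0.0161). With a replicate block, 3 of the 10 were higher and 4 lower, Bbc3 passing (-0.24, edgeR adjusted p = 0.0453) and Bax changing sign (-0.0095), beside 3538 higher and 3727 lower genes. Replicate 3 has no control, so in the blocked fit it does not inform the treatment estimate. The blocked values are thus close to those without TGF-β1 replicate 3 (Mdm2 0.3913 and 0.3915, Gdf15 -0.4708 and -0.4648) and are not a separate check. In simulated counts for this design, 29 of 50 genes changed 1.5-fold and 35 of 50 changed 2-fold were recovered. Only 50 genes per fold size were changed there, far fewer than the 44.5% called in the data. Those shares therefore do not carry over to this fit, and a gene that did not pass may still have changed.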

Other observations

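Close relatives of the 10 genes, which share structure or function with them, did not all move with them. Sesn3, the third sestrin, fell from 76.04 ± 0.206 to 51.02 ± 3.12 CPM (log2 fold change, TGF-β1 over control, of -0.58, edgeR adjusted p = 3.55e-05), in the same direction as Sesn1. Ccng2, encoding cyclin G2 and better known as a FOXO target than as a p53 target, rose from 49.2 ± 1.49 to 60.95 ± 7.12 CPM (log2 change 0.31, edgeR adjusted p = 0.0164). Trp53inp2, an autophagy gene related to Trp53inp1, fell from 197 ± 2.38 to 179.7 ± 3.03 CPM (log2 change -0.13, edgeR adjusted p = 0.01). Zmat1 fell from 8.77 ± 0.845 to 4.10 ± 0.621 CPM (log2 change -1.09).

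Among relatives of Bax and Bbc3 in the BCL2 family, Bok, a pore-forming member, rose from 26.6 ± 0.153 to 50.3 ± 1.85 CPM (log2 change 0.92), while Bmf, a BH3-only gene, fell from 13.9 ± 1.34 to 5.53 ± 1.39 CPM (log2 change -1.33). Of 19 relatives listed, 15 were tested, of which 4 rose, 6 fell and 5 missed the threshold, where 21.3% of all tested genes were higher and 23.2% lower. Of 12 genes commonly read for FOXO factors, 3 rose, 4 fell and 5 missed the threshold, or 58.3% that passed beside the 44.5% of all tested genes. The largest change there was in Fbxo32, the ubiquitin ligase atrogin-1, from 16.5 ± 1.06 to 49.2 ± 10.55 CPM (log2 change 1.58, edgeR adjusted p = 3.49e-05).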
